A study of Mus musculus with 4 samples.

Results

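The 9 genes described here encode components and receptors of the complement system, of 27998 genes in the deposited mouse expression table. They were chosen by name: C1qa, C1qb and C1qc, which encode the chains of C1q; C3, Cfb and Cfp, which encode C3, factor B and properdin; and the receptor genes C3ar1, C5ar1 and Vsig4. Each was followed through the cell types the authors assigned, the clusters within the monocyte, macrophage and DC part of the data (named MoMacDC by the authors), and the CD115hi subsets P-I to P-IV.

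Complement is a set of plasma proteins that tag and clear microbes and dying cells. C1q recognises antibody and altered surfaces and opens the classical pathway, C3 is the component that every pathway cleaves, factor B forms the convertase of the alternative pathway, and properdin stabilises it. C3a and C5a, the small fragments released on the way, act through C3ar1 and C5ar1 on myeloid cells, whereas Vsig4 is a receptor for C3 fragments on some tissue macrophages. C1q and properdin are unusual among these proteins in being made largely by myeloid cells, and C1q is a well known product of splenic macrophages.

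CD11b+ splenocytes of C57BL/6 mice 8 to 12 weeks old were sorted and profiled by CITE-seq, in which antibody-derived tags report surface proteins beside the RNA. One library (4827 cells, 22358903 UMIs) came from steady-state mice and 1 (6804 cells, 35007567 UMIs) from mice that received GM-CSF, a myeloid growth factor, under the skin (10 µg once a day, 3 times) and were analysed 24 hours after the last injection. No genotype is named for either group beyond the strain, and the number of mice in a library was not given in the sources used here. There was 1 library per condition, so no comparison between conditions has a replicate check and no p-value is given. Intervals are 95% and cover counting error only. Levels are CPM, the UMIs of a gene in a group of cells per 1000000 UMIs of that group. A gene was called higher or lower when 2 such levels differed by at least 2-fold and rested on at least 50 UMIs together.

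The deposited macrophage label was set beside 11 macrophage markers. They summed to 24452 CPM in the 25 steady-state and 24232 CPM in the 22 GM-CSF-treated cells, against 889 and 794 CPM in granulocytes, the next highest type. Among them were Vcam1 (5833 and 5566 CPM), Hmox1 (7130 and 7831 CPM) and Cd5l (1038 and 1545 CPM), while Siglec1 was low (41.5 and 21.2 CPM). The cluster deposited as cDC2-A carries NK cell genes and is called here by its deposited name only. The 2 libraries shared 8 cell barcodes. Doublets were called in 2.81% of cells. They made up 54.1% of MoMacDC cluster 11 in steady state and 89.6% after GM-CSF, 4 of 7 and 32 of 33 cells of cluster 15, and 6 of 7 cells of cluster 14 after GM-CSF. NK cell markers (Ncr1, Klrb1c, Nkg7, Gzma and Prf1 summed) stood at 11214 CPM in the 43 steady-state cells of MoMacDC_c4 and at 0.349 CPM after GM-CSF. These cells lie mainly in clusters 7 and 8, which had 4898 and 11449 CPM of the markers in steady state.

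All 9 genes lie on the minus strand of the GRCm38 genome. C1qb (chr4:136880126-136886200), C1qc (chr4:136889801-136892936) and C1qa (chr4:136895916-136898844) are neighbours within 18719 bp of chromosome 4. C3 (chr17:57203967-57228136) and Cfb (chr17:34856374-34862514) lie apart on chromosome 17, and Cfp (chrX:20925454-20931555) and Vsig4 (chrX:96247201-96293438) on the X chromosome. C3ar1 is at chr6:122847140-122856157 and C5ar1 at chr7:16246743-16259540.

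RefSeq start regions were at hand for 7 of the 9 genes, C1qa and Cfb being the others. The 250 bases before the start that the RefSeq table gives are shown for the 6 whose levels carry the results: C1qb and C1qc, which lie side by side and differ in their share of C1q UMIs, C3 and C5ar1, which were lower after GM-CSF in MoMacDC cells, and Cfp and C3ar1, which were higher. They are GRCm38.p6, minus strand, 5′ to 3′. The start of C5ar1 in that table lies inside the gene span given above, so that 202 bases of its window, the marked ones included, are within the gene, as are 22 of C1qc. Capitals mark matches, on either strand, to GAGGAA (the core bound by PU.1, a myeloid factor), GAAANNGAA (9 bases of the interferon-stimulated element) or TTCNNNGAA (the STAT element).

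C1qb, chr4:136886201-136886450: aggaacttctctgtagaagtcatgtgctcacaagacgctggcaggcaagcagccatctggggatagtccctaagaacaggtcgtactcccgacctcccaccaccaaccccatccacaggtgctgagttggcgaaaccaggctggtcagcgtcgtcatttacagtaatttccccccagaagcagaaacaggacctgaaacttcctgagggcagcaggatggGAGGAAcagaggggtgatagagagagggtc
C1qc, chr4:136892915-136893164: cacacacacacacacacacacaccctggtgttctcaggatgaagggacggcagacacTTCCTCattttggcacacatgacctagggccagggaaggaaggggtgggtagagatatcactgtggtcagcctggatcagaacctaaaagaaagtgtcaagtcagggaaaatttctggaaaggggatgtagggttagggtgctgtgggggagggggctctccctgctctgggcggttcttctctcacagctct
C3, chr17:57228137-57228386: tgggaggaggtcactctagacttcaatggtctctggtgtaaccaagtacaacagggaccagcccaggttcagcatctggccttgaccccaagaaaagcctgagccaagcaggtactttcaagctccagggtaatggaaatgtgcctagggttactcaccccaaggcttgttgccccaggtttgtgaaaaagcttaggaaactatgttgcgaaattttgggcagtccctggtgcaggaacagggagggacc
C5ar1, chr7:16259339-16259588: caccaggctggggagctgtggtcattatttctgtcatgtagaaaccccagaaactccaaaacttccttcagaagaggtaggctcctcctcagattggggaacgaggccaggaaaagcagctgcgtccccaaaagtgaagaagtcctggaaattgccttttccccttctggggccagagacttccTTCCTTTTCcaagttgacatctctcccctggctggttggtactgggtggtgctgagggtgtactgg
Cfp, chrX:20931556-20931805: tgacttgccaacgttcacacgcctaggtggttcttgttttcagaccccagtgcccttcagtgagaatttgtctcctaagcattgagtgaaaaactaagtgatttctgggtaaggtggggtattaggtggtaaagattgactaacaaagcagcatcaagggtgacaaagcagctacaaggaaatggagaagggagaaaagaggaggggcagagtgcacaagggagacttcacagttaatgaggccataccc
C3ar1, chr6:122856158-122856407: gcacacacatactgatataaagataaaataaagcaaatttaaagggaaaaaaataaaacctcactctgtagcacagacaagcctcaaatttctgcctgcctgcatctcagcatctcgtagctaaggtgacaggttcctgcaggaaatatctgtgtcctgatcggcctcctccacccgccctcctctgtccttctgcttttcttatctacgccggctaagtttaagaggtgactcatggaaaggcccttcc

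C1qb and C1qc each held 1 GAGGAA, which 23.3% of 32851 start regions of the same length hold. C5ar1 held 1 GAAANNGAA, present in 7.13% of them. No TTCNNNGAA, found in 7.02%, was in any of these 6 windows, and C3, Cfp and C3ar1 held none of the 3 motifs. No motif was therefore shared by the genes that were lower or by those that were higher.

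C1q levels were highest in macrophages. In steady state C1qa stood at 3145 CPM, C1qb at 1671 CPM and C1qc at 2377 CPM in the 25 macrophages. After GM-CSF they stood at 2709, 1905 and 1989 CPM in the 22 macrophages. The authors set cell types from marker genes of clusters, and the clusters were made from expression, so these levels are a description of the label. Among deposited types the highest level outside macrophages was 10.6 CPM, of C1qb in MoMacDC_c1 after GM-CSF. Macrophages held 86.1% of C1qa UMIs in steady state and 66% after GM-CSF, and 86.4% and 65.3% of those of C1qc. For C1qb they held 73.5% in steady state and 35.2% after GM-CSF, where 166 of 256 UMIs were in MoMacDC cells.

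Among single macrophages C1qa ranged in steady state from 424 to 13260 UMIs per 1000000 UMIs of the cell, with a median of 3677. After GM-CSF it ranged from 0 to 8143, with a median of 2784, and 1 cell had none. The spread within each library was far wider than the difference between them.

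Between libraries none of the 4 members with enough UMIs in macrophages was called, where 13.8% of 427 genes were. The ratio of GM-CSF-treated over steady state was 0.861 (0.695 to 1.06) for C1qa, 1.14 (0.871 to 1.48) for C1qb and 0.837 (0.651 to 1.07) for C1qc. All 3 intervals include 1. With so few cells a change within these bounds was not detectable at this depth.

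Outside the C1q genes, the member with the highest level in macrophages was Cfp, the properdin gene. Cfp stood at 1287 CPM in steady-state and 868 CPM in GM-CSF-treated macrophages, its highest level in both libraries, with a ratio of 0.674 (0.462 to 0.967) that was not called. It was lower by at least 2-fold, and so called, when cells over 10% mitochondrial UMIs were left out (log2 ratio -1.01). C3 gave UMIs in 4 of 25 and 5 of 22 macrophages, and C5ar1 and Cfb in none of either.

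**Figure D1:**
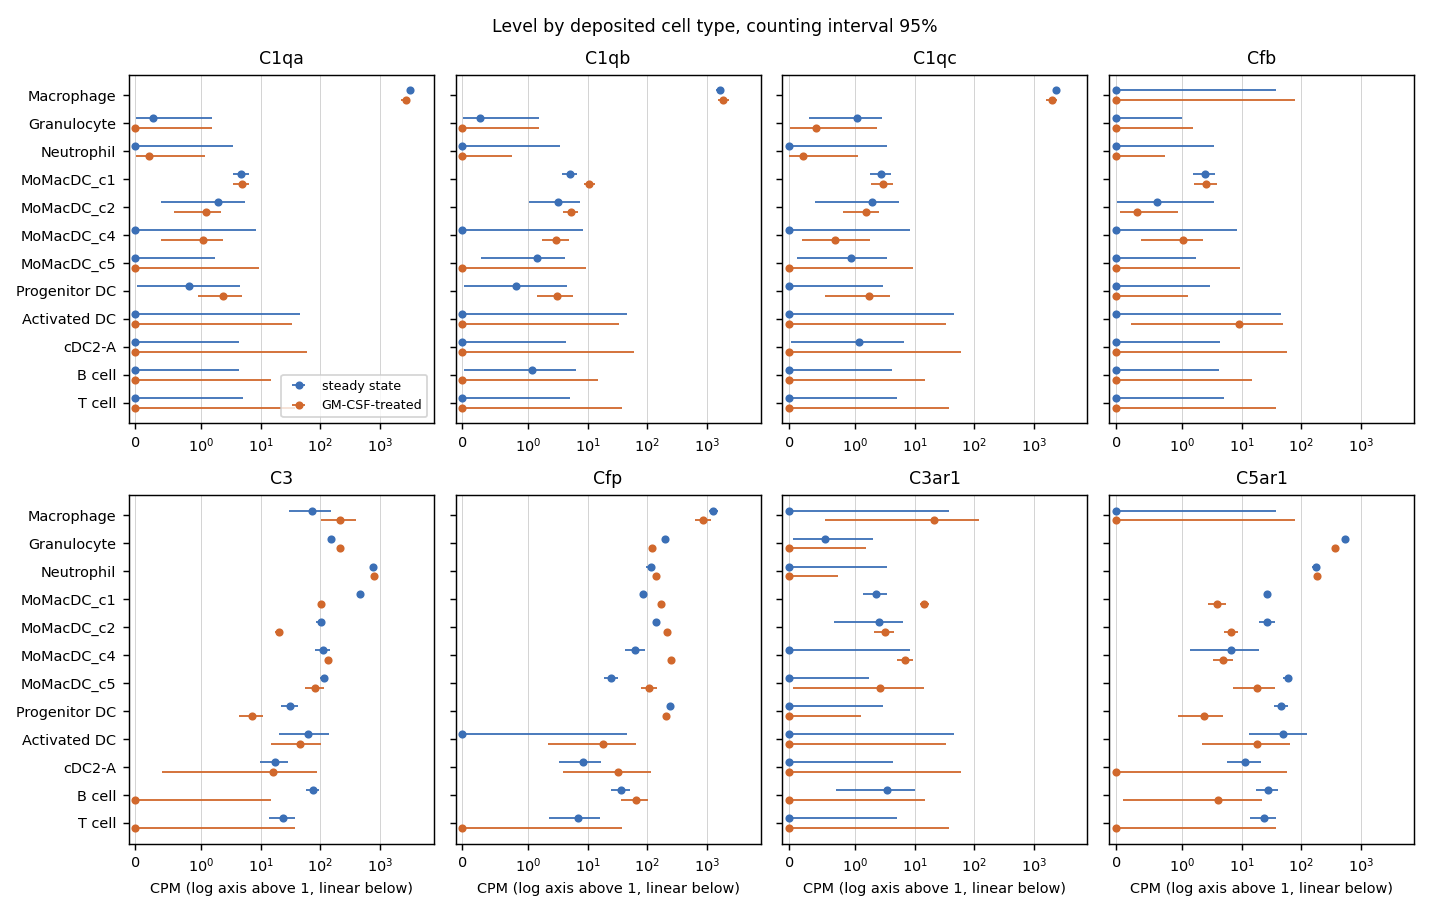
CPM of 8 complement genes in each deposited cell type (rows) in steady state (blue) and after GM-CSF (orange), points with exact 95% counting intervals, on an axis that is logarithmic above 1 and linear below. C1qa, C1qb and C1qc stand between 1671 and 3145 CPM in macrophages and at or below 10.6 CPM in every other type, whereas C3 and C5ar1 are high in neutrophils and granulocytes. Vsig4 is not drawn.

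C1q transcripts were also found outside macrophages. To tell cells with the whole set from cells with a stray UMI, a C1q cell was defined as 1 with at least 1 UMI each of C1qa, C1qb and C1qc and at least 5 in sum. There were 44 such cells, 26 in steady state and 18 after GM-CSF. Macrophages held 35 of them, 21 of 25 in steady state (84%, 63.9 to 95.5) and 14 of 22 after GM-CSF (63.6%, 40.7 to 82.8). MoMacDC cells held 9 and no other type held any. Among granulocytes, the most numerous other type, 0 of 1929 and 0 of 1791 allow a share of up to 0.191% and 0.206%.

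The 10 genes that stood out most from other cells of the same library in both sets of C1q cells, chosen among 173 with enough UMIs, included Cd5l, Vcam1, Hmox1, Slc40a1, Sdc3, Clec4n, Ctsb, Creg1 and Ctsd. Slc40a1 exports iron and Hmox1 degrades haem, both known functions of red pulp macrophages. Vcam1 stood at 3732 CPM in steady-state C1q cells against 3.29 CPM in the rest, and at 2942 against 5.72 CPM after GM-CSF. The cells were picked by C1q and most were macrophages, so the list is a description.

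Of the 9 C1q cells among MoMacDC cells, 5 were steady-state cells and 4 were cells taken after GM-CSF. All were CD115-, none was called a doublet, and their C1q UMIs ran from 6 to 42. In the 5 steady-state cells the 11 macrophage markers summed to 461 CPM, against 287 CPM in the other MoMacDC cells and 24452 CPM in macrophages. Of the 27 marker UMIs 14 were of Axl, at 239 CPM against 21.8 CPM in the other MoMacDC cells. Spic was at 51.2 against 9.27 CPM, and Vcam1 and Marco had 1 UMI each. Adgre1 was at 102 against 141 CPM and Hmox1 at 34.2 against 76.5 CPM. Slc40a1, Cd5l, Mertk, Mrc1 and Siglec1 had 0 UMIs. The median tag counts of these 5 cells were 1929 for MHCII and 434 for CD11c, against 15 and 8 over all steady-state MoMacDC cells. In the 4 GM-CSF-treated cells the markers summed to 2319 CPM, against 284 CPM in the other MoMacDC cells of that library. Of the 11 markers 10 had a UMI there, with Slc40a1 at 475 CPM and Cd5l at 140 CPM. Adgre1 was at 112 against 174 CPM in the other MoMacDC cells.

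These 9 cells set much of the C1q count in MoMacDC cells. C1qa had 48 UMIs in steady state and 65 after GM-CSF (3.21 and 2.4 CPM), C1qb 56 and 166 (3.75 and 6.13 CPM) and C1qc 31 and 48 (2.07 and 1.77 CPM). With the 9 cells left out, C1qa went from 7 to 37 UMIs (0.47 and 1.37 CPM), C1qb from 22 to 138 (1.48 and 5.1 CPM) and C1qc from 10 to 35 (0.671 and 1.29 CPM). The direction of C1qa and C1qc between libraries thus turned from lower to higher when 9 cells were left out. C1qb was higher with them (ratio 1.64, 1.2 to 2.26) and without them (3.45, 2.19 to 5.69). The 9 cells were chosen by their C1q UMIs, so the levels and ratios without them depend on that choice.

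C1qb made up more of these scattered C1q UMIs than it did in macrophages. In macrophages C1qb was 161 of 693 C1q UMIs in steady state (23.2%, 20.1 to 26.6) and 90 of 312 after GM-CSF (28.8%, 23.9 to 34.2). In GM-CSF-treated MoMacDC cells other than C1q cells it was 138 of 210 (65.7%, 58.9 to 72.1). In the steady-state counterpart it was 22 of 39 (56.4%, 39.6 to 72.2), an interval that overlaps the GM-CSF one. Leaving out C1q cells takes out cells that hold C1qa and C1qc, so part of these shares is set by the filter. Macrophages were not filtered. With the C1q cells kept in, C1qb was 41.5% (33.1 to 50.3) of C1q UMIs in steady-state and 59.5% (53.5 to 65.3) in GM-CSF-treated MoMacDC cells, 2 intervals that do not overlap. The intervals of macrophages and of these MoMacDC cells do not overlap within either library.

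The C1qb-rich UMIs were spread over many cells. In the GM-CSF-treated library 89 MoMacDC cells other than C1q cells held C1qb, 19 of them with C1qa or C1qc as well, and the richest cell held 10 of the 138 UMIs. Without that cell the C1qb share was 64% (56.9 to 70.6), and without the richest steady-state cell it was 50% (32.4 to 67.6) there. By cluster, with C1q cells left out, the share was 74.5% of 47 UMIs in cluster 0, 66.7% of 42 in cluster 1 and 72.7% of 33 in cluster 2. In Progenitor DC, with C1q cells left out as well, it was 5 of 14 UMIs (35.7%, 12.8 to 64.9). Among granulocytes, neutrophils, B cells and T cells of that library, 2802 cells in all, there were 3 C1q UMIs and none was C1qb.

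C1qb also led in the P-IV subset, the CD115hi cells that lack Ly6C and carry MHCII and CD301b, called GMiDCs by the authors. Among 313 P-IV cells after GM-CSF, 26 of 31 C1q UMIs were C1qb (83.9%, 66.3 to 94.5), in 15 cells of which 1 also held C1qa or C1qc. A single cell held 10 of the 26. Without it C1qb was 16 of 21 (76.2%, 52.8 to 91.8), still above the interval of macrophages. P-III of the same library had 6 of 14 (42.9%, 17.7 to 71.1), an interval that overlaps those of both P-IV and macrophages. P-IV in steady state counted 7 cells and allows no such share.

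**Figure D2:**
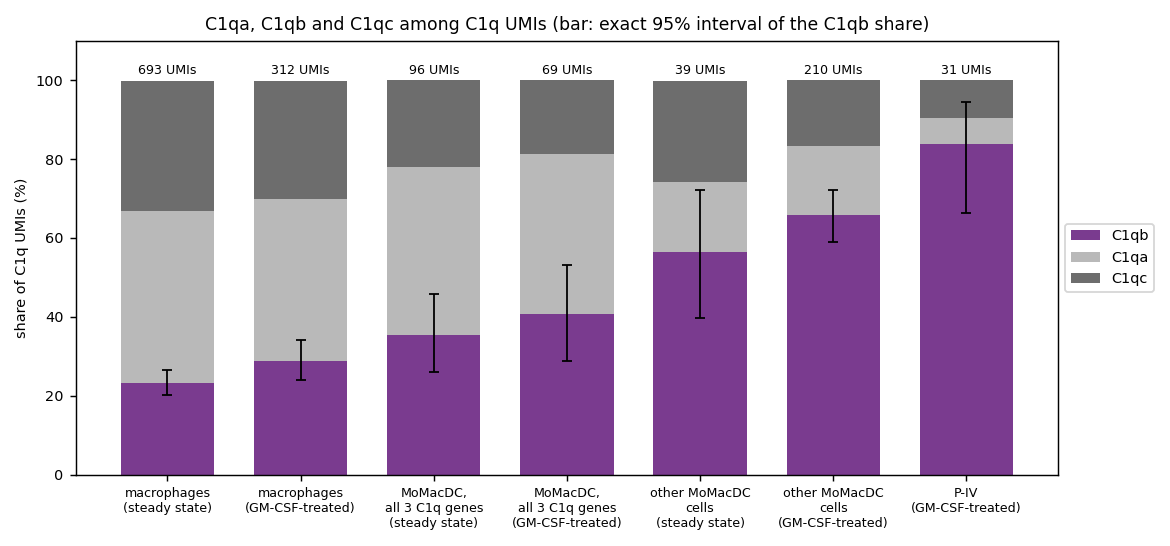
Share of C1q UMIs (%, vertical axis) that were C1qb (purple), C1qa (light grey) or C1qc (dark grey), with the number of C1q UMIs above each bar and the exact 95% interval of the C1qb share as a line. C1qb is 23.2% and 28.8% in macrophages, 56.4% and 65.7% in MoMacDC cells other than C1q cells, and 83.9% in P-IV cells after GM-CSF. Leaving out C1q cells takes out cells with C1qa and C1qc, and macrophages were not filtered in this way.

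The question the libraries were made to address is how GM-CSF changes CD11b+ myeloid cells of the spleen. In all 2135 steady-state against 3940 GM-CSF-treated MoMacDC cells, 4 of the 8 members tested were called, 2 lower (C3 and C5ar1) and 2 higher (Cfp and C3ar1). Of 10860 genes, 18.1% were called in either direction, 9.46% lower and 8.66% higher. The median log2 ratio of all genes tested was -0.0611, so the scale itself was nearly centred. With clusters 11, 14 and 15 left out the ratios of C3, C5ar1, Cfp and C3ar1 were 0.194, 0.145, 2.32 and 4.42, and without MoMacDC_c4 they were 0.162, 0.155, 2.04 and 4.24.

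C3, the central component, was lower. It stood at 324 CPM (315 to 333) in steady state and 70.7 CPM (67.6 to 74) after GM-CSF, a ratio of 0.218 (0.207 to 0.23). Cells with a C3 UMI were 1316 of 2135 (61.6%) and 811 of 3940 (20.6%), at median depths of 6894 and 6654 UMIs. In T cells, taken as a background type, 4.02% of 174 cells held a UMI in steady state (median depth 3747) and 0 of 39 after GM-CSF, and with called doublets left out none did in either. At 1000 UMIs per cell the shares of MoMacDC cells were 22.8% and 5.16%. Within the 12 clusters that had at least 20 cells in each library, C3 was below its steady-state level in 10, with an interval wholly below 1 in 9 of them. The 9 include cluster 7, which had NK cell markers in steady state, and the doublet-rich cluster 11. In cluster 5, the one with the most steady-state C3 UMIs, C3 went from 459 to 123 CPM, and in cluster 9 from 69.9 to 0.672 CPM. Cluster 8 had the opposite sign, 82.7 in steady state against 125 CPM after GM-CSF (ratio 1.51, 1.02 to 2.32), where 2 of 28 steady-state cells held all 27 UMIs and 1 cell 19 of them, and so had cluster 12, with 1 and 13 UMIs. Without that cell the ratio in cluster 8 was 4.79 (2.41 to 11.2), on 8 steady-state UMIs, and the part of the NK cell markers there was not tested.

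In neutrophils C3 was at like levels in both libraries. It stood at 776 CPM in steady state and 809 CPM after GM-CSF (ratio 1.04, 0.967 to 1.12), and no member was called in neutrophils, where 6.1% of genes were. C3 in granulocytes was 151 and 214 CPM (ratio 1.42, 1.25 to 1.6), not called, nor was any other member there, against 10.5% of genes. Of all C3 UMIs in steady state 76.2% were in MoMacDC cells and 13.3% in neutrophils. After GM-CSF 29.8% were in MoMacDC cells and 62% in neutrophils, whose number in the libraries was 146 and 893. The cell type that held most C3 transcripts was thus another one in each library.

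Within each library C3 followed the Ly6C and CD11c tags. By quartile of Ly6C tag, from lowest to highest, C3 was 49.2, 147, 409 and 569 CPM in steady-state MoMacDC cells. After GM-CSF it was 5.46, 8.7, 39.7 and 194 CPM. Ly6C is the surface marker of classical monocytes, and C3 was highest in its top quartile in both libraries. Along CD11c, a DC marker, the order was the reverse, from 489 to 83.5 CPM in steady state and from 184 to 17.8 CPM after GM-CSF between the lowest and highest quartile. Between the same quartiles of CD115 it went from 269 to 346 CPM and from 63 to 58.9 CPM. For CD301b it went from 142 to 449 CPM in steady state and from 72.1 to 16.4 CPM after GM-CSF. The lowest and highest quartile of CD301b spanned tag counts of 0 to 1 and 9 to 275 in steady state. After GM-CSF they spanned 0 to 8 and 110 to 4040. For CD115 in steady state they spanned 0 to 1 and 9 to 197, so the steady-state steps of both tags rest on low counts. The tag counts were raw, and the part of cell depth in these steps was not tested. Quartiles were set within each library, and the median Ly6C tag count was 488 in steady state and 19 after GM-CSF. By the deposited cell-cycle phase C3 after GM-CSF was 52.1 CPM in G1, 81.5 CPM in S and 108 CPM in G2M, against 313, 380 and 312 CPM in steady state.

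Cfp, the properdin gene, was higher in MoMacDC cells after GM-CSF. It stood at 93.5 CPM (88.7 to 98.5) and 204 CPM (199 to 210), a ratio of 2.18 (2.06 to 2.32), with a Cfp UMI in 36.3% and 63.5% of cells (7.45% and 16.5% at 1000 UMIs per cell). T cells held 5 Cfp UMIs in steady state (6.88 CPM, 1.72% of cells) and none after GM-CSF, which allows up to 38 CPM. B cells held 32 and 16 UMIs (36.5 and 63.7 CPM). Without called doublets pooled B and T cells went from 17 to 48.8 CPM (ratio 2.87, 1.42 to 5.68), against a ratio of 2.2 (2.07 to 2.34) in MoMacDC cells. MoMacDC cells then stood 5.46 times (3.62 to 8.64) above B and T cells in steady state and 4.18 times (2.57 to 7.32) after GM-CSF. The part of background in the Cfp result was not tested. The Cfp level was above steady state in 11 of the 12 clusters, with an interval wholly above 1 in 9. The largest of these ratios was in cluster 4, 19.1 against 109 CPM (5.71, 3.59 to 9.12), and the exception was cluster 12, 256 against 199 CPM (0.776, 0.59 to 1.04). The 9 include clusters 7 and 8, which had NK cell markers in steady state, and the doublet-rich cluster 11.

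Unlike C3, Cfp was nearly flat along the Ly6C tag. By quartile of Ly6C it was 95, 90.5, 87.3 and 101 CPM in steady state and 196, 209, 206 and 204 CPM after GM-CSF. The widest step was along MHCII in steady state, from 69.2 CPM in the quartile next to the highest to 129 CPM in the highest, followed by CD11c, from 75.9 to 125 CPM. After GM-CSF Cfp along CD11c was lowest in quartile 2, 175 CPM (165 to 186), and highest in quartile 4, 240 CPM (230 to 251).

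**Figure D3:**
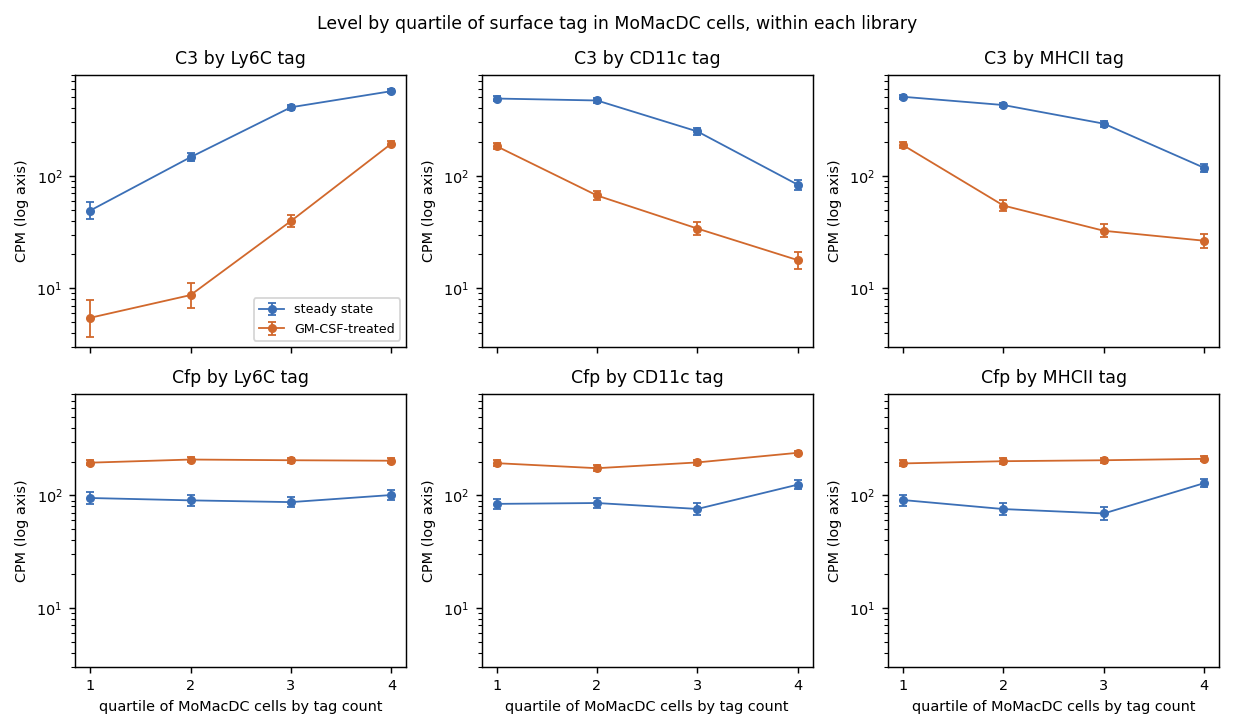
CPM (log axis) of C3 (top) and Cfp (bottom) in MoMacDC cells, split within each library into quartiles of Ly6C, CD11c or MHCII tag counts (horizontal axis), for steady state (blue) and GM-CSF-treated (orange), with exact 95% intervals. C3 climbs with Ly6C from 49.2 to 569 and from 5.46 to 194 CPM, while Cfp along Ly6C stays between 87.3 and 101 and between 196 and 209 CPM.

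C3ar1, the C3a receptor gene, was scarce but higher after GM-CSF. In MoMacDC cells it had 25 UMIs in steady state (1.67 CPM, 1.08 to 2.47) and 196 after GM-CSF (7.24 CPM, 6.26 to 8.32), a ratio of 4.33 (2.85 to 6.85). Cells with a UMI were 0.89% and 4.49%. Granulocytes held 2 UMIs in steady state and none after GM-CSF, neutrophils and T cells held none in either library, and the 3 UMIs in steady-state B cells came from 1 cell. It was above steady state in 10 of the 12 clusters, with an interval wholly above 1 in 3, and in no cluster did it reach 50 UMIs.

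C5ar1, the C5a receptor gene, belongs to granulocytes and neutrophils in these data. It stood in granulocytes at 555 and 376 CPM (ratio 0.677, 0.626 to 0.733) and in neutrophils at 175 and 182 CPM (1.04, 0.886 to 1.22). In MoMacDC cells it was called lower, from 32.4 CPM (29.5 to 35.4) to 5.09 CPM (4.28 to 6.02), a ratio of 0.157 (0.129 to 0.191).

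The level in cells that should lack C5ar1 moved the same way. Steady-state B cells stood at 27.4 CPM and T cells at 23.4 CPM, GM-CSF-treated B cells at 3.98 CPM (1 UMI) and T cells at 0. MoMacDC cells were 1.27 times (0.919 to 1.79) the pooled B and T cells in steady state and 1.77 times (0.313 to 70.6) after GM-CSF, and both intervals include 1. The share of cells with a C5ar1 UMI was 14.9% of MoMacDC cells against 9.69% of B cells and 6.9% of T cells in steady state, at median depths of 6894, 2976 and 3747 UMIs. At 1000 UMIs per cell these shares were 2.36%, 1.05% and 1.16%.

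Called doublets carried part of these UMIs. With them left out C5ar1 in MoMacDC cells was 25.2 CPM (22.7 to 28) in steady state and 2.31 CPM (1.76 to 2.98) after GM-CSF, a ratio of 0.0917 (0.0684 to 0.121). B and T cells were then at 12.6 CPM (7.32 to 20.1) in steady state, and MoMacDC cells stood 2.01 times (1.24 to 3.48) above them. After GM-CSF B and T cells had 0 UMIs, which at the floor of 3 counts allows up to 9.15 CPM, so the level of MoMacDC cells there was not detectably above background. The granulocyte transcripts S100a8 and S100a9 together were 2639 CPM in B and T cells of the steady-state library and 569 CPM after GM-CSF, and their part in the C5ar1 result was not tested. In cluster 11, the largest of the doublet-rich clusters, C5ar1 was 157 and 62 CPM. Within clusters C5ar1 was lower after GM-CSF in 10 of 12, with an interval wholly below 1 in 7. Only 3 of the 12 clusters had enough UMIs for a call. In cluster 4 the interval included 1 (ratio 0.468, 0.166 to 1.08). It lay below 1 in cluster 5 (0.109, 0.0129 to 0.411) and in the doublet-rich cluster 11 (0.395, 0.266 to 0.571). The other intervals below 1 rest on fewer UMIs than the minimum.

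**Figure D4:**
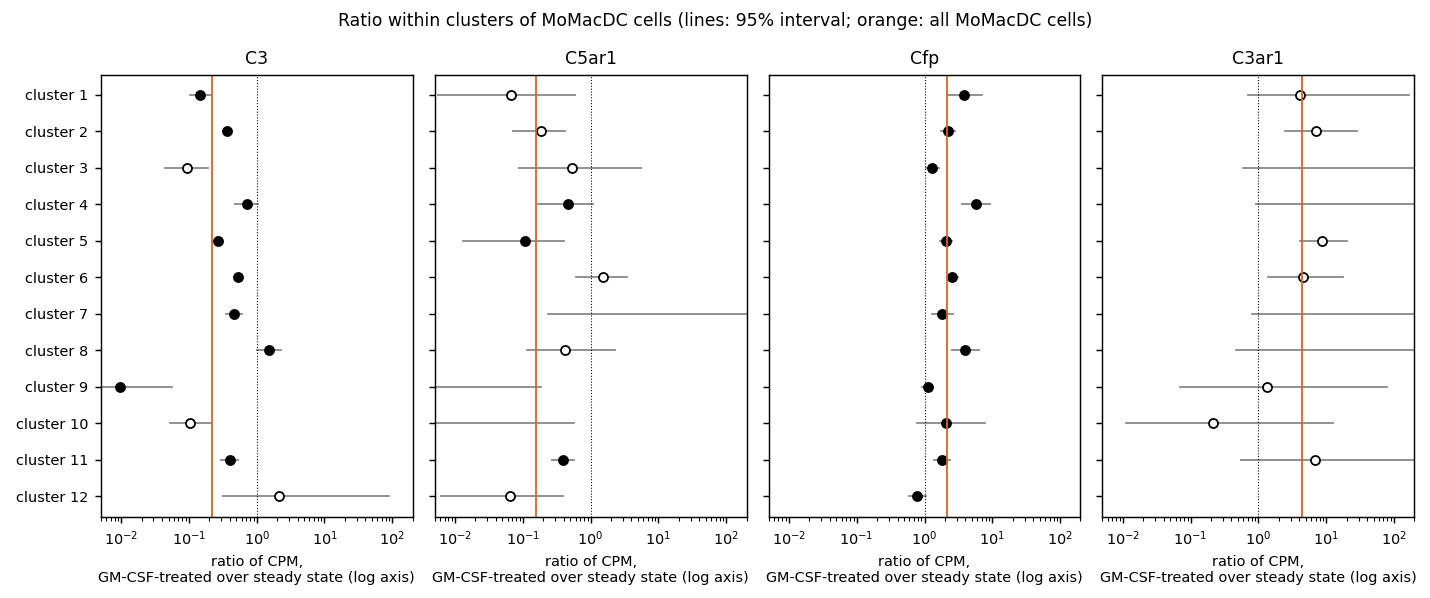
Ratio of CPM in GM-CSF-treated over steady-state cells (log axis) within each of 12 MoMacDC clusters (rows) for C3, C5ar1, Cfp and C3ar1, with 95% counting intervals as grey lines cut at the plot edge. Filled points rest on at least 50 UMIs and open ones on fewer, a line without a point has 0 UMIs in 1 library, and the orange line is the ratio over all MoMacDC cells (0.218, 0.157, 2.18 and 4.33). C3 lies left of 1 in 10 clusters and Cfp right of 1 in 11.

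By deposited type the calls were as follows. In MoMacDC_c1 5 of 7 members tested were called, against 12.7% of 9556 genes. C3 went from 457 to 104 CPM (ratio 0.228, 0.212 to 0.245), C5ar1 from 26.5 to 3.92 CPM, Cfp from 83.4 to 168 CPM (2.01, 1.85 to 2.2), C3ar1 from 2.21 to 14.5 CPM (6.59, 4.13 to 11) and C1qb from 4.94 to 10.6 CPM (2.15, 1.5 to 3.12). The C1qb ratio was 4.14 (2.44 to 7.41) without the C1q cells, which were chosen by their C1q UMIs, on 18 against 68 UMIs. Cfp lay just past 2-fold and was not called with each cell thinned to 1000 UMIs (log2 ratio 0.82).

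MoMacDC_c2 had C3 lower (101 to 19.9 CPM) and C5ar1 lower (26.9 to 6.66 CPM) among 4 members, against 12.8% of genes. MoMacDC_c4 had Cfp higher (62.3 to 246 CPM), 1 of 2 members, against 24.7% of genes, and C3 at 109 and 135 CPM. The NK cell markers of this type, 11214 CPM in steady state and 0.349 CPM after GM-CSF, moved with these values, and their part in the Cfp result was not tested. MoMacDC_c5 had Cfp higher (24.6 to 107 CPM) and C5ar1 lower (60 to 17.9 CPM) among 3, against 9.16%. In Progenitor DC C3 went from 30.7 to 7.05 CPM and C5ar1 from 46.1 to 2.35 CPM, 2 of 3 members against 13.9%, while Cfp was 240 and 209 CPM. Cfp was thus at 209 CPM or more in Progenitor DC of both libraries, and reached that level in MoMacDC_c2 and MoMacDC_c4 only after GM-CSF. In the 43 steady-state MoMacDC_c4 cells 1 cell held 11 of the 28 Cfp UMIs. Without called doublets C3 after GM-CSF was 3.94 CPM in MoMacDC_c2 and 1.06 CPM in Progenitor DC, and the ratios to steady state were 0.0414 (0.0276 to 0.0605) and 0.0346 (0.00683 to 0.109). C5ar1 was then 0.926 and 0.709 CPM in these types, with ratios of 0.0438 and 0.0154. C3 in Progenitor DC (38 and 3 UMIs) and C5ar1 in MoMacDC_c2 (32 and 8 UMIs) were then under the minimum of 50 and not called.

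C3 was also called lower in B cells, the 1 member tested there, against 15.2% of genes and a median log2 ratio of all genes of -0.257. It had 66 UMIs in 196 steady-state cells (75.3 CPM) and 0 in 79 GM-CSF-treated cells, at least 6.3-fold lower against a floor of 3 counts. The 66 UMIs came from 22 cells with a median of 8642 UMIs, against 2796 in the other B cells, and 9 of the 22 were called doublets. The classical monocyte markers Ly6c2, Ccr2, F13a1 and Fn1 summed to 1737 CPM in those 22 cells and 105 CPM in the others. Without called doublets C3 was 46.3 CPM in steady state, on 35 UMIs, under the minimum for a call. The part of monocyte RNA in this result was not tested.

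The subsets P-I to P-IV were gated by surface tags within the MoMacDC cells, which were themselves chosen by RNA clusters. P-I, the Ly6C+ classical monocytes, counted 139 cells in steady state and 187 after GM-CSF. C3 went from 451 CPM (412 to 493) to 141 CPM (122 to 162), a ratio of 0.313 (0.264 to 0.37), and C5ar1 from 42.1 to 7.17 CPM (0.17, 0.0766 to 0.342). These 2 of 3 members tested were called lower, where 12.1% of 5774 genes were called and 7.12% were lower. Cfp was 86 CPM (69.5 to 105) and 169 CPM (148 to 191), a ratio of 1.96 (1.54 to 2.52) just inside 2-fold. It was called higher when doublets were left out (log2 ratio 1.07). C5ar1 fell under 50 UMIs and was not called without doublets or without the cell with the most UMIs. C3ar1 had 1 UMI in steady state and 24 after GM-CSF (ratio 18.8, 3.07 to 773), too few for a call.

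Within the GM-CSF-treated library C3 was lower again in P-III, which the authors name pre-GMiDCs, and in P-IV. C3 was 141 CPM in P-I, 20.3 CPM (11.4 to 33.5) in 126 P-III cells and 8.01 CPM (4.74 to 12.7) in 313 P-IV cells. P-III over P-I was 0.144 (0.0789 to 0.243) and was called lower, 1 of 2 members tested, against 3.82% of genes. P-IV over P-III was 0.395 (0.188 to 0.841) on 33 UMIs, under the minimum for a call, and neither this nor any other member was called there, against 2.93% of genes. The 2 comparisons share the P-III cells.

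Cfp did not follow C3 across these subsets. It was 169 CPM in P-I, 178 CPM (149 to 212) in P-III and 232 CPM (212 to 253) in P-IV, and P-IV over P-III was 1.3 (1.07 to 1.58). C3ar1 was 17.2 CPM (11 to 25.6) in P-I, 5.41 CPM (1.47 to 13.8) in P-III and 2.22 CPM (0.722 to 5.19) in P-IV. The intervals of P-I and P-IV do not overlap, and those of P-III overlap both. C5ar1 had 10, 0 and 3 UMIs. P-II, the non-classical monocytes, counted 8 cells in each library and is not described.

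**Figure D5:**
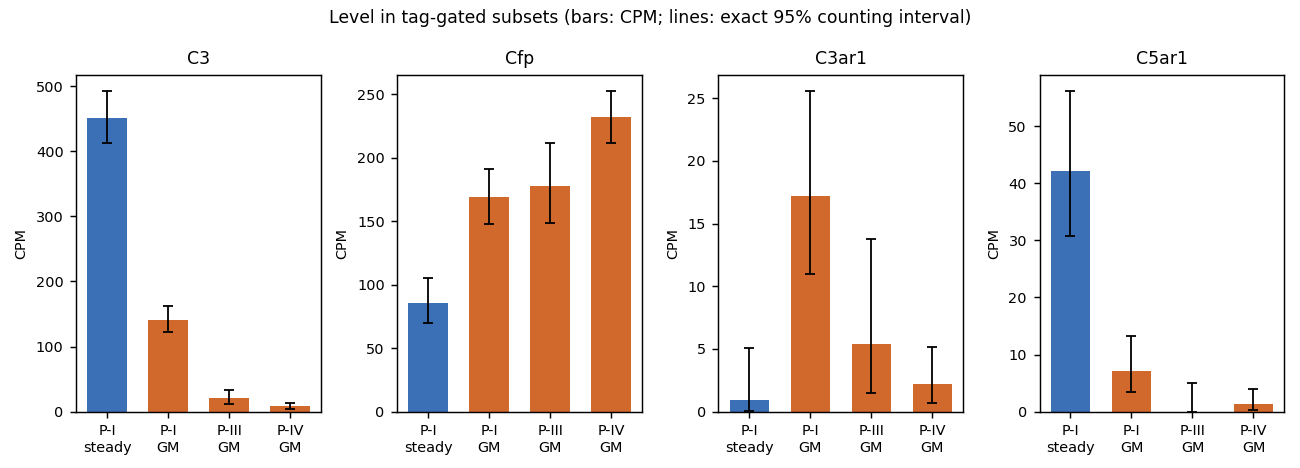
CPM of C3, Cfp, C3ar1 and C5ar1 (1 panel each, vertical axes from 0) in P-I cells in steady state (blue) and after GM-CSF (orange) in P-I, in P-III and in P-IV, with exact 95% counting intervals. C3 steps down from 451 to 141, 20.3 and 8.01 CPM, while Cfp stands at 86, 169, 178 and 232 CPM.

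Factor B and Vsig4 were almost absent. Cfb had 24 UMIs in steady state, all in MoMacDC cells, and 32 after GM-CSF, 31 of them in MoMacDC cells (1.61 and 1.14 CPM, ratio not called). MoMacDC_c1 held 23 of the 24 and 22 of the 32. Vsig4 had a single UMI in 11631 cells, in a steady-state granulocyte, and none in macrophages, which at the floor of 3 counts allows up to 31.1 CPM in the steady-state and 63.5 CPM in the GM-CSF-treated ones.

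Beyond the members, 47 other complement genes were listed, of which 45 are in the table. In MoMacDC cells 15 had enough UMIs, with 3 higher and 8 lower and a median log2 ratio of -1.07, against 8.66% higher, 9.46% lower and a median of -0.0611 over all genes. Among recognition molecules Fcna (ficolin-A) went from 0.334 to 2.33 CPM and Colec12 from 3.95 to 0.221 CPM. Among regulators Cd46 went from 2.94 to 0.886 CPM and Cd55 from 2.94 to 0.48 CPM. Of the chains of the receptors for cleaved C3, Itgam (320 to 152 CPM) and Itgb2 (518 to 217 CPM) were lower and Itgax, which encodes CD11c, was higher (104 to 229 CPM). C5ar2, the other C5a receptor gene, went from 10.8 to 0.775 CPM, Cd93 from 56.6 to 10.3 CPM, and C1qbp, which encodes a mainly mitochondrial protein, from 45 to 99.1 CPM. In granulocytes C5ar2 stood at 204 and 129 CPM. The part of granulocyte RNA or doublets in its MoMacDC levels was not tested. In P-I 8 were tested, with Itgax higher (43.9 to 159 CPM) and 4 lower, among them Itgam, Itgb2 and Cd93, against 12.1% of all genes called. Of 6 and 7 genes of the list tested, none was called between P-III and P-I or between P-IV and P-III, against 3.82% and 2.93% of genes.

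Macrophages held further complement genes of the list at 500 CPM or more. Fcna was 1339 CPM in steady state and 1206 CPM after GM-CSF, and C6, a terminal component, was 519 CPM in steady state. Calr, a chaperone that C1q binds, was 903 and 741 CPM. Of 4 genes of the list with enough UMIs in macrophages, none was called, against 13.8% of genes. Itgam was 580 and 617 CPM and Itgb2 583 and 659 CPM in granulocytes, where Itgax (77.3 to 181 CPM) and Cd93 (10.6 to 26.1 CPM) were called higher, against 10.5% of genes called. In B cells Cr2, the receptor for C3d, was called lower (373 to 151 CPM), as were Cd55 (342 to 123 CPM) and Itgb2 (240 to 91.6 CPM), against 15.2% of genes called. The classical monocyte markers summed to 478 CPM in steady-state B cells and 95.6 CPM in GM-CSF-treated ones. The part of monocyte RNA or doublets in these B cell results was not tested.

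The genes whose levels were most like each member were sought over 19 groups (a deposited type in a library) with at least 100000 UMIs, among 9751 genes. Groups share libraries, and macrophages fell below that depth, so for C1q the measure describes the low levels outside them. By Pearson r of log2(CPM + 10), Cxcl9, a chemokine gene, was closest to C1qa (0.920), C1qb (0.945) and C1qc (0.865). C3 was closest to Mgst1 (0.921), Ints12 (0.898) and Prdx5 (0.895), and Cfp to Vrk1 (0.928), Clec4a2 (0.887) and Pira2 (0.867). C3ar1 was closest to Fcna (0.872), Cfb to Papss2 (0.955) and C5ar1 to B430306N03Rik (0.988). The value for Cfb rests on 24 UMIs in steady state and 32 after GM-CSF. Its highest level among the groups, 8.95 CPM in Activated DC after GM-CSF, was a single UMI. Among members outside the C1q genes C3ar1 was closest to C1qb (0.811), and C3 to C5ar1 (0.617), whereas C3 and Cfp were at 0.230.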

How the data were processed

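CD11b+ splenocytes were profiled by CITE-seq with the 10x 3' v3 kit, in 2 RNA and 2 antibody-tag libraries. Per the labels and the study's methods, reads were counted by the authors with Cell Ranger 3.0.2 on mm10 and analysed in Seurat 3.6.0, which removed cells outside 200 to 5000 genes or above 15% mitochondrial reads. The values used are deposited whole-number UMI counts per gene and cell, not normalized, and raw tag counts. Cell types, clusters and subsets are the authors' annotation, as are the cell-cycle phases, which the authors set from Seurat module scores. The cells deposited in the MoMacDC table are MoMacDC_c1, c2, c4, c5 and Progenitor DC.

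CPM is the summed count of a gene over a group's summed UMIs, scaled to 1000000, with exact Poisson intervals. Shares have Clopper-Pearson intervals, and ratios of CPM the exact interval of the binomial share of 2 counts. Calls needed a 2-fold ratio with 0.5 counts added to each sum and at least 50 UMIs. A group at 0 was set against a floor of 3 counts. Intervals cover counting error only, since cells of 1 library are not replicates. Alternatives left out doublets (Scrublet in scanpy 1.11.5), thinned each cell to 1000 UMIs, kept cells of at most 10% mitochondrial UMIs, added no counts, used a minimum of 20 UMIs, weighted cells equally or left out the top cell. The calling was tested on simulated data. Python 3.11.15, numpy 2.4.6, scipy 1.17.1 and pandas 2.3.3 were used.

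Named beside the members are the 3 genes closest to each, listed complement genes called or at 500 CPM or more, and the 10 genes that most mark C1q cells; of the first, only the closest is given for some members. The members and lists were chosen with earlier results of these data known. Leaving out C1q cells, clusters 11, 14 and 15, MoMacDC_c4, the top cell of C1qb or of C3 in cluster 8, or doublets against B and T cells was chosen after seeing the data. Start regions are RefSeq sequences on GRCm38.p6. Marker lists other than those of macrophages, classical monocytes and NK cells, and protein sequences, were not used here. Some genes that these rules name are not reported here.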

Additional observations from a re-analysis of the deposited data

Results flagged for a closer look

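Differences between the libraries that took opposite signs in different cell types are given as ratios of GM-CSF-treated over steady-state CPM. They were picked by their counting intervals in these data. C3 in granulocytes and Cfp in macrophages, granulocytes and MoMacDC_c2 were not called. There was 1 library per condition, so the difference between cell types was not tested. For C3 the ratio was 1.42 in granulocytes, against 0.228 in MoMacDC_c1, 0.197 in MoMacDC_c2, 0.229 in Progenitor DC and 0.0 in B cells. In B cells this rests on 66 UMIs against 0, at least 6.3-fold lower against a floor of 3 counts, and on 35 steady-state UMIs without called doublets. For Cfp it was 0.674 in macrophages and 0.596 in granulocytes, against 2.01 in MoMacDC_c1, 1.52 in MoMacDC_c2, 3.95 in MoMacDC_c4 and 4.36 in MoMacDC_c5. The steady-state cells of MoMacDC_c4 carried NK cell markers at 11214 CPM against 0.349 CPM after GM-CSF, and the part of this in the Cfp ratio was not tested.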

How the results depend on the processing

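No paired analysis was possible because each condition had 1 library. No called member changed direction under any alternative run. Among the recomputed counts 98 stayed within 1.5 times the reported one and 20 did not. With cells thinned to 1000 UMIs, which leaves fewer UMIs per group, members called higher went from 2 to 1 in MoMacDC cells (Cfp) and from 5 to 1 over the other cell types, members called lower from 8 to 2 over those types, from 2 to 1 in P-I (C3) and from 1 to 0 in P-III against P-I. C1q cells then numbered 11 and 6 among macrophages and 1 and 0 among MoMacDC cells, in steady state and after GM-CSF. Without doublets 5 members instead of 8 were called lower over the other types, and in P-I 1 was lower (C3) and 1 higher (Cfp), as without the top cell, where C5ar1 fell under 50 UMIs. At a minimum of 20 UMIs C3ar1 was also called, higher in P-I (1) and lower in P-III against P-I (2 with C3), and C3 was called lower in P-IV against P-III (1). At most 10% mitochondrial UMIs left 8 C1q cells among GM-CSF-treated macrophages and called 1 member (Cfp) lower there. A sum of 3 UMIs gave 8 C1q cells among GM-CSF-treated MoMacDC cells. C1qa in MoMacDC cells, not called, went from a log2 ratio of -0.42 to 1.46 without C1q cells.

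Macrophages held few cells, and rare members such as Cfb and Vsig4 could not be compared at this depth. Without replicates no difference between libraries can be told apart from a difference between preparations.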
